A study of Rattus norvegicus with 18 samples.

Results

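The glucocorticoid receptor gene Nr3c1 and 8 genes known as its targets or as genes of the fasting response, Fkbp5, Tsc22d3, Sgk1, Klf9, Klf15, Dusp1, Zbtb16 and Angptl4, were followed in cultured rat nucleus pulposus cells treated with compounds that stabilise G-quadruplexes. The 9 genes were taken by symbol from a table of 33898 genes. They were chosen because several of them moved in opposite directions with the compounds PDS and Braco-19. Their values in those comparisons, and in the control groups that enter them, are therefore given as a description without p-values. Where genes are counted there as passing a threshold, nothing is read from the count. Of the 9 genes, 8 passed the filter on low counts, among 14184 genes tested in all. The ninth, Zbtb16, had 0 counts in all 18 libraries.

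The glucocorticoid receptor is a nuclear receptor that waits in the cytoplasm on heat shock chaperones, enters the nucleus when it binds cortisol or corticosterone, and binds DNA at paired short sites. Among its textbook targets are Fkbp5, a co-chaperone that lowers the receptor's affinity for hormone, Tsc22d3 (GILZ), which restrains NF-kB and AP-1, and Dusp1, a phosphatase that switches off MAP kinases. Klf9 and Klf15 are transcription factors of the same response, and Klf15 and Angptl4, a secreted inhibitor of lipoprotein lipase, also respond to fasting. In the intervertebral disc, whose gelatinous core the nucleus pulposus forms, glucocorticoids are known mainly as anti-inflammatory drugs.

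Cells came from Sprague Dawley rats aged 8 weeks and were grown in medium with 10% fetal bovine serum. They received PDS (pyridostatin), Phen-DC3 or Braco-19 for 24 hours. There were 6 groups of 3 libraries: the 3 compounds, controls named for PDS, controls named for Phen-DC3, and controls whose titles name no compound, which were matched to Braco-19 by elimination. The labels give neither doses nor what the controls received, and they do not say whether the libraries of a group came from separate animals or cultures, so p-values measure the spread between these libraries, which may be technical. No glucocorticoid treatment is named in the labels, and the hormone content of the serum was not measured here.

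Library totals ran from 15715121 to 18369443 counts, and levels are given as CPM, counts scaled to a common library size after TMM normalisation, as mean ± SD of 3 libraries. Of the markers of nucleus pulposus and notochord cells, Krt19, Tbxt and Shh had 0 counts in every group, Krt18 had at most 2 counts in a group, and the sum of the 12 markers was 106 to 138.5 CPM over the libraries of the 3 control groups. In each group 5 or 6 of the 12 were under 1 CPM. Acan, the gene of the proteoglycan aggrecan, was at 0.14 to 0.22 CPM in the PDS and Phen-DC3 groups and their controls, 1.74 ± 0.58 CPM with Braco-19 and 2.85 ± 0.57 CPM in the controls named for no compound. Krt8, Ca3, Sox9, Cd24, Col2a1 and Foxf1 were above 1 CPM in all groups. Fibroblast markers summed to 2403 to 2912 CPM in PDS and Phen-DC3 controls and to 5605 to 6863 CPM in the controls named for no compound. The spread between replicates was widest in Phen-DC3 controls, where squared differences between pairs of libraries, relative to counting error, were 13.6 to 36.5 per gene, against 4.27 to 17 in the other 5 groups. The test pools this spread over the groups. In bulk RNA, fewer cells of a type and less RNA per cell cannot be told apart.

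Levels are compared between genes as CPM per kilobase of gene model. In PDS controls the order was Angptl4 (204 ± 7.63), Dusp1 (119 ± 2.99), Tsc22d3 (25.2 ± 0.79), Klf15 (14.8 ± 0.32), Sgk1 (12.8 ± 0.38), Nr3c1 (7.41 ± 0.97), Fkbp5 (7.15 ± 0.72) and Klf9 (5.87 ± 0.62). In the controls named for no compound Dusp1 led (108 ± 7.53), followed by Angptl4 (26.6 ± 2.69) and Nr3c1 (21.8 ± 1.95), and Klf15 was the lowest of the 8 (6.88 ± 0.53). Zbtb16, a zinc finger factor strongly induced by glucocorticoids in many cells, had no counts, and 3 counts would have been 0.162 to 0.187 CPM depending on the library. That limit covers counting error only.

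**Figure D1:**
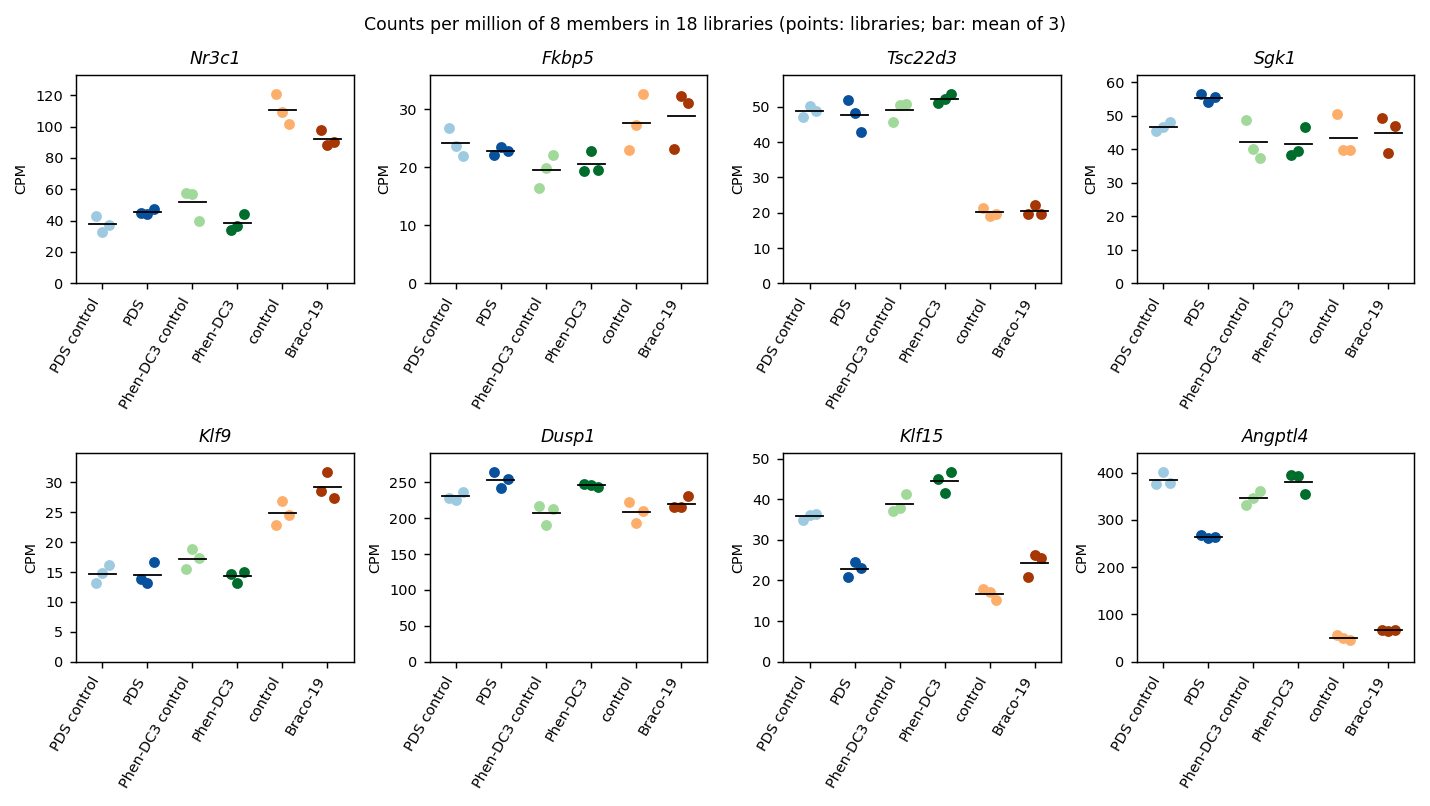
CPM of the 8 genes with counts in the 18 libraries, 1 panel per gene with its own axis from 0; points are libraries and bars are means of 3. Angptl4 and Tsc22d3 sit low and Nr3c1 and Klf9 sit high in the 2 groups on the right, the controls named for no compound and Braco-19, while Klf15 in Braco-19 (24.2 ± 2.97 CPM) lies beside PDS (22.8 ± 1.89 CPM).

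Nr3c1 encodes the receptor itself (ENSRNOG00000014096, chromosome 18, 31728373 to 31749647, minus strand, as the deposited table gives it, genome build not given in the sources used here). In PDS controls its 3 libraries had 42.7, 32.9 and 37.3 CPM, and with PDS they had 44.9, 44.4 and 47.1 CPM. The PDS libraries lay above all PDS controls, by 0.27 ± 0.13 on the log2 scale (± is the standard error for log2 differences). In the controls named for no compound it had 121, 109 and 101 CPM, and with Braco-19 97.9, 88.4 and 89.9 CPM. These groups did not overlap either, and the Braco-19 libraries were lower, at a log2 difference of -0.26 ± 0.12. Its gene model is longer than 89.8% of those tested. The Spearman correlation of log2 fold change with gene length over all genes was 0.174 for PDS and -0.225 for Braco-19. Over 13 alternatives with the same controls, a length correction among them, Nr3c1 stayed at 0.18 to 0.37 and at -0.32 to -0.20. The part of length was not tested further.

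Angptl4 and Klf15 show the opposite directions by which the genes were chosen, lower with PDS and higher with Braco-19. Angptl4 (ENSRNOG00000007545, chromosome 7, 18627808 to 18634079, minus strand) had 375, 401 and 378 CPM in PDS controls and 268, 262 and 263 CPM with PDS. Each PDS library was far below each control, and the mean fell from 385 ± 14.4 to 264 ± 3.02 CPM, a log2 difference of -0.54 ± 0.07. In the controls named for no compound it had 55.9, 49.1 and 45.9 CPM, and with Braco-19 65.9, 65.3 and 66.9 CPM. The Braco-19 libraries were all above these controls, by 0.39 ± 0.07 (log2), but remained well under the level in PDS-treated cells.

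Klf15 (ENSRNOG00000017808, chromosome 4, 122365093 to 122377659, plus strand) is a transcription factor of gluconeogenesis and amino acid breakdown. It had 34.9, 36.1 and 36.4 CPM in PDS controls and 20.9, 24.6 and 23 CPM with PDS, a log2 difference of -0.65 ± 0.10. In the controls named for no compound it had 17.8, 17.0 and 15.3 CPM, and with Braco-19 20.8, 26.2 and 25.6 CPM, a log2 difference of 0.53 ± 0.10. The groups did not overlap in either comparison, and Braco-19 replicate 1 was the lowest of its group.

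A gene is called here at an adjusted p under 0.05 in edgeR's quasi-likelihood test over all genes. Under PDS, 2 of the 8 tested genes, Angptl4 and Klf15, were called lower and 0 higher, where 2.96% of all genes were called lower, 5.13% higher and 8.09% in either direction. With Braco-19 the same 2 were called higher and 0 lower, where 0.169% of all genes were called higher, 0.106% lower and 0.275% in either direction. Since the genes were chosen from these contrasts, nothing is read from either count. The Braco-19 call of Klf15 was lost when control replicate 1, 2 or 3 or Braco-19 replicate 2 or 3 was left out, with log2 differences of 0.58, 0.55, 0.47, 0.47 and 0.49. That of Angptl4 was lost without control replicate 2 or 3 or Braco-19 replicate 2 or 3, at 0.38, 0.33, 0.40 and 0.38. Against the mean of the 3 control groups in place of their own controls, Angptl4 with PDS was 0.49 higher, and Angptl4 and Klf15 with Braco-19 were lower, at -1.51 and -0.24. The baselines of the control groups are given further on.

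**Figure D2:**
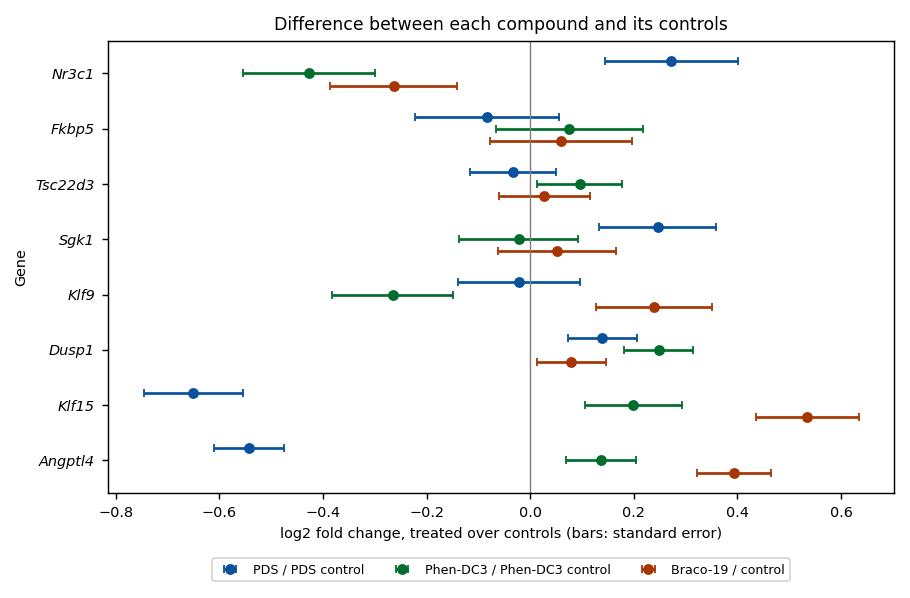
Log2 fold change of each compound over its own controls for the 8 genes (horizontal axis), with bars of 1 standard error. Klf15 and Angptl4 lie at -0.65 and -0.54 with PDS and at 0.53 and 0.39 with Braco-19, with Phen-DC3 between them.

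The RNA start is shown for Angptl4 and Klf15, which have the directions by which the genes were chosen. The 200 bases before the start site of each are from RefSeq (build GRCr8). The positions are Angptl4 chr7:15258682-15258881, minus strand, and Klf15 chr4:124522815-124523014, plus strand. Capitals mark TATAAA on either strand in Angptl4, where 2 overlapping matches run from 41 to 34 bases before the start, and CACGTG in Klf15.
Angptl4: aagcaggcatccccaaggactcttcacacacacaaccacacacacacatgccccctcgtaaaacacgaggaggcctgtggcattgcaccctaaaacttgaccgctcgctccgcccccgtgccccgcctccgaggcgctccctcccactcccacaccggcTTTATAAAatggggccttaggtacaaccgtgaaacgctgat
Klf15: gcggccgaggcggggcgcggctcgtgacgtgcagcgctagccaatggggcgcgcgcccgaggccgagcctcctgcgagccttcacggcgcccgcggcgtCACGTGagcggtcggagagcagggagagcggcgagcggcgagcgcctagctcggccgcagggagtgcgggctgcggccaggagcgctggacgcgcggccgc
CACGTG, the E-box letters, stood 101 to 96 bases before the start of Klf15. It stood in 6.42% of all 33469 promoter windows of 300 bases (250 before to 50 after a start) on either strand, and TATAAA in 14.2%. Both motifs were added after the sequences had been seen.

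**Figure D3:**
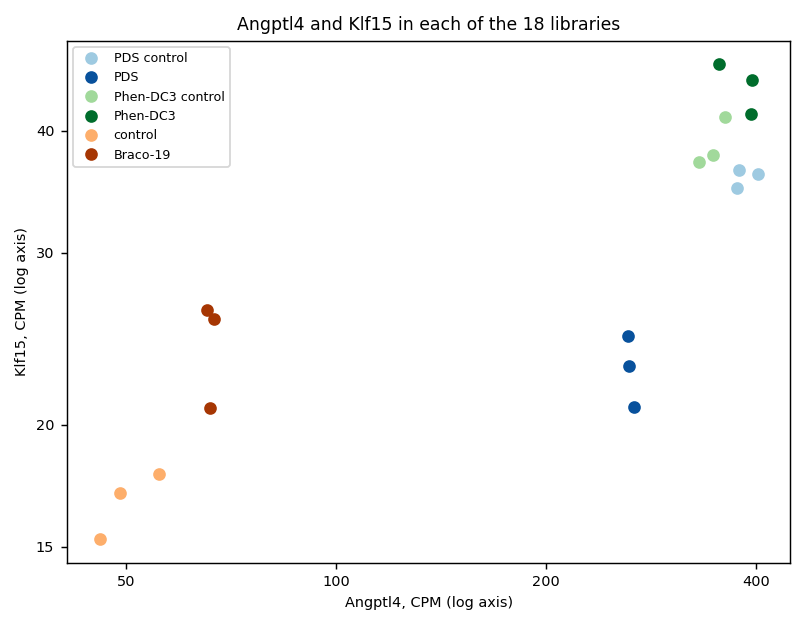
Angptl4 (horizontal) and Klf15 (vertical) in CPM, both on log axes, with 1 point per library. PDS libraries lie below and left of PDS controls, Braco-19 libraries above and right of their controls, and the Phen-DC3 libraries near the top right corner.

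The other target genes differed less with PDS or Braco-19. Sgk1, a kinase of sodium transport and cell survival, had 45.3, 46.8 and 48.2 CPM in PDS controls and 56.7, 54.1 and 55.6 CPM with PDS. Every PDS library was above every control, by 0.25 ± 0.11 (log2). With Braco-19 it was at 45.0 ± 5.55 CPM against 43.4 ± 6.24 CPM, and the groups overlapped.

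Dusp1 was 10.1% higher with PDS, at 254 ± 11.5 against 230.5 ± 5.79 CPM (log2 0.14 ± 0.07), with groups that did not overlap. With Braco-19 it was at 220.3 ± 8.91 against 209 ± 14.6 CPM, with overlap. Klf9, a factor that also answers thyroid hormone, was at 14.5 ± 1.86 CPM with PDS and 14.7 ± 1.56 CPM in its controls. With Braco-19, Klf9 had 28.6, 31.8 and 27.5 CPM against 22.9, 26.9 and 24.6 CPM, all above the controls by 0.24 ± 0.11 (log2).

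Fkbp5 and Tsc22d3, which are commonly read as markers of receptor activity, showed overlapping groups with both compounds. Fkbp5 was at 22.8 ± 0.76 CPM with PDS and 24.2 ± 2.43 CPM in PDS controls (log2 -0.08 ± 0.14, 95% interval -0.37 to 0.21). With Braco-19 it was at 28.8 ± 4.92 against 27.7 ± 4.88 CPM (log2 0.06 ± 0.14, 95% interval -0.23 to 0.34). Tsc22d3 was at 47.6 ± 4.66 against 48.8 ± 1.53 CPM for PDS (log2 -0.03 ± 0.08, 95% interval -0.21 to 0.14). For Braco-19 it was at 20.5 ± 1.40 against 20.1 ± 1.16 CPM (log2 0.03 ± 0.09, 95% interval -0.16 to 0.21).

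Over the 8 genes, groups did not overlap in 5 with PDS (3 higher, 2 lower) and in 4 with Braco-19 (3 higher, 1 lower). Over all genes tested that share was 33.3% for PDS (17.7% higher, 15.6% lower) and 28.1% for Braco-19 (13.7% higher, 14.4% lower).

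Phen-DC3 was not used to choose the genes, and here each was tested. Earlier results of these data were known at the choice, which the p-values do not take into account. Nr3c1 fell and Dusp1 rose, and 6 of the 8 did not pass the threshold. The 1 gene called higher and the 1 called lower stand beside 2.19% and 5.82% of all genes, and 8.01% in either direction. Nr3c1 had 57.8, 57.1 and 39.9 CPM in Phen-DC3 controls and 34.2, 36.5 and 44.4 CPM with Phen-DC3. The groups overlapped, since control replicate 3 was lower than Phen-DC3 replicate 3. The mean fell from 51.6 ± 10.2 to 38.4 ± 5.37 CPM, by 25.6% (log2 -0.43 ± 0.13, edgeR adjusted p = 0.04665).

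Dusp1 (ENSRNOG00000003977, chromosome 10, 16970626 to 16973418, plus strand) had 217, 190.2 and 213 CPM in Phen-DC3 controls and 248, 246 and 244 CPM with Phen-DC3. The 3 treated libraries lay close together and above all controls. The rise was 18.8%, from 207 ± 14.7 to 246 ± 2.08 CPM (log2 0.25 ± 0.07, edgeR adjusted p = 0.03145). Groups did not overlap in 3 genes that were higher (Dusp1, Klf15, Tsc22d3) and 1 that was lower (Klf9), beside 10.1% and 11.9% of all genes, and 22.1% in either direction.

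Both calls depended on the setting. In this comparison log2 fold changes across all genes followed gene length (Spearman -0.443 over 14184 genes), and Nr3c1 has a gene model of 5078 bases, longer than 89.8% of those tested. With a correction for length, Nr3c1 was at -0.20 ± 0.10 (adjusted p = 0.2691) and Dusp1 at 0.20 ± 0.07 (adjusted p = 0.1256). Leaving out Phen-DC3 control replicate 1, control replicate 2, Phen-DC3 replicate 1 or Phen-DC3 replicate 2 gave Nr3c1 adjusted p of 0.2223, 0.1752, 0.2429 and 0.1492. For Dusp1 the same libraries gave 0.08586, 0.1406, 0.1525 and 0.09346. On the 6 libraries of this comparison alone, the edgeR adjusted p was 0.221 for Nr3c1 and 0.2072 for Dusp1. Over all alternatives the edgeR and DESeq2 adjusted p ran from 5.65e-05 to 0.2691 for Nr3c1 and from 0.004665 to 0.2072 for Dusp1, with the directions kept.

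Klf15 and Angptl4 did not pass under Phen-DC3. Klf15 had 37.1, 37.7 and 41.3 CPM in controls and 45.0, 41.6 and 46.7 CPM with Phen-DC3, which did not overlap (log2 0.20 ± 0.09, edgeR adjusted p = 0.1637). Angptl4 had 331, 347 and 360.5 CPM in controls and 395, 393 and 354 CPM with Phen-DC3, which overlapped (log2 0.14 ± 0.07, edgeR adjusted p = 0.1872). Their 95% intervals, before adjustment, were 0.0043 to 0.39 for Klf15 and -0.0047 to 0.28 for Angptl4. The PDS values of -0.65 and -0.54 for the same genes were obtained at doses that may differ, so no comparison is made.

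Klf9 was at 14.3 ± 1.02 CPM with Phen-DC3 and 17.2 ± 1.60 CPM in its controls (log2 -0.27 ± 0.12, edgeR adjusted p = 0.1387). For Tsc22d3, Fkbp5 and Sgk1 the log2 differences were 0.10 ± 0.08, 0.08 ± 0.14 and -0.02 ± 0.11, with adjusted p of 0.4714, 0.7629 and 0.9224 in edgeR. The 95% interval was -0.08 to 0.27 for Tsc22d3, -0.22 to 0.37 for Fkbp5 and -0.26 to 0.22 for Sgk1.

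The start region of Dusp1 is shown for its cAMP element and that of Sgk1 for its guanine runs, the kind of sequence that can fold into a quadruplex. They are the 200 bases before a RefSeq start (GRCr8) at chr10:17184653-17184852, plus strand, and chr1:24804832-24805031, minus strand. Capitals mark TGACGTCA and CACGTG in Dusp1. In Sgk1 they mark 4 runs of at least 3 G with 1 to 7 bases between runs, and TATAAA.
Dusp1: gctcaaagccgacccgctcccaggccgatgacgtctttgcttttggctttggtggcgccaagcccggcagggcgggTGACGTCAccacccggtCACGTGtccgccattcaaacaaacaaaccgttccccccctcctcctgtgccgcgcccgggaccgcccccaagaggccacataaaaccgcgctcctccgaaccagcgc
Sgk1: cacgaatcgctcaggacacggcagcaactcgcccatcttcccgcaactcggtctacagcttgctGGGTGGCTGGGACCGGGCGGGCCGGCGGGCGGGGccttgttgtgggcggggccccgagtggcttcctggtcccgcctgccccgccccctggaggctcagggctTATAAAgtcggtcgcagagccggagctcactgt
Dusp1, a gene quickly induced by stress and by cAMP, was the only one of the 8 matched genes with TGACGTCA, 124 to 117 bases before its start. It was in 2% of all genes and 1.83% of all windows. The quadruplex pattern was found, on either strand, in windows of 3 of the 8 genes, Nr3c1, Sgk1 and Tsc22d3. It was in 18.1% of all genes with promoter windows and in 16.6% of all windows. Klf15 and Angptl4 had no match to it in this window. The 8 genes had 13 windows in the table, which held no entry for Zbtb16.

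The paired glucocorticoid element, AGAACA followed by any 3 bases and TGTTCT, was in none of the 13 windows and in 0.0149% of all windows. A single AGAACA or TGTTCT was in none of them and in 20.7% of all. The PPAR element, searched as AGGTCA, any base and AGGTCA again, was in none and in 0.0538% of all. These searches cover only the letters within 300 bases.

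The 3 control groups set the baselines, and for Angptl4, Klf15, Tsc22d3, Nr3c1 and Klf9 PDS and Phen-DC3 controls lay further from the controls named for no compound than any compound lay from its own controls. Angptl4 was 7.65-fold higher in PDS controls than in the controls named for no compound, at 385 ± 14.4 against 50.3 ± 5.08 CPM (log2 2.94 ± 0.07). In Phen-DC3 controls it was at 346 ± 14.7 CPM, 6.88-fold higher (log2 2.78 ± 0.07). Tsc22d3 had 47.2, 50.2 and 48.9 CPM in PDS controls, 45.7, 50.5 and 50.7 CPM in Phen-DC3 controls and 21.4, 19.2 and 19.7 CPM in the controls named for no compound. The ranges of PDS and Phen-DC3 controls overlapped, and both lay above the controls named for no compound, by 1.28 ± 0.09 and 1.29 ± 0.09 (log2). Klf15 was higher in the same direction by 1.1 ± 0.10 and 1.21 ± 0.10.

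Nr3c1 ran the other way. It was at 37.6 ± 4.94 and 51.6 ± 10.2 CPM in PDS and Phen-DC3 controls and at 111 ± 9.92 CPM in the controls named for no compound, with log2 differences of -1.55 ± 0.13 and -1.10 ± 0.13. Klf9 was also lower, by -0.75 ± 0.11 and -0.52 ± 0.11. Fkbp5 was lower in Phen-DC3 controls (-0.51 ± 0.14) and at -0.19 ± 0.14 in PDS controls. Sgk1 and Dusp1 lay within 0.15 of 0 in both.

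For PDS controls against the controls named for no compound, 3 of the 8 were called higher and 2 lower, beside 35.6% and 37.7% of all genes, and 73.3% in either direction. Phen-DC3 controls gave 3 higher and 3 lower, beside 34.6% and 34.9%, and 69.5% in either direction. These comparisons share the controls named for no compound, and the control groups enter the contrasts that chose the genes, so nothing is read from the counts. Between PDS and Phen-DC3 controls 1 of the 8, Nr3c1, was called, lower in PDS controls by -0.45 ± 0.13, beside 4.5% of all genes called lower, 1.59% called higher and 6.09% in either direction. The ranges of its groups overlapped, and the call was lost with the length correction and without PDS control replicate 2 or 3 or Phen-DC3 control replicate 1 or 2. Groups did not overlap in 6 of the 8 genes between PDS controls and the controls named for no compound (4 higher, 2 lower), beside 76.9% of all genes (37.4% higher, 39.6% lower). For Phen-DC3 controls it was 6 of 8 (3 higher, 3 lower), beside 71.2% (34.8% higher, 36.4% lower). Between PDS and Phen-DC3 controls it was 3 of 8 (2 higher, 1 lower), beside 23.8% (10.6% higher, 13.1% lower).

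Length moved with the baselines. The Spearman correlation of log2 fold change with gene length was -0.496 for PDS controls and -0.474 for Phen-DC3 controls against the controls named for no compound. With the length correction Nr3c1 was at -0.63 ± 0.10 and -0.35 ± 0.10, Tsc22d3 at 1.02 ± 0.08 and 1.05 ± 0.08, and Angptl4 at 2.65 ± 0.07 and 2.52 ± 0.07. Klf15 was at 1.09 ± 0.10 and 1.18 ± 0.10, and all 4 kept their directions. Sgk1 was then at 0.59 ± 0.10 and 0.34 ± 0.10, and Fkbp5 in Phen-DC3 controls at -0.20 ± 0.14. Dusp1 stood at -0.11 ± 0.07 and -0.25 ± 0.07. Cell type markers differed between these groups too. The 6 matched of 7 fibroblast markers summed to 2403 to 2912 CPM in PDS controls, 2593 to 2820 CPM in Phen-DC3 controls and 5605 to 6863 CPM in the controls named for no compound. Col1a1 carried the sum, at 1356 ± 231.6, 1413 ± 55.6 and 4855 ± 575 CPM, while Thy1 ran the other way, at 935 ± 14.6, 798 ± 72.6 and 560 ± 53.3 CPM. The 8 macrophage markers summed to 108.5 to 114.2, 95.5 to 107.1 and 34.5 to 42.4 CPM, a direction that rests on Cd14. Cd68 (1.07 ± 0.36, 1.15 ± 0.20 and 2.57 ± 0.24 CPM) and Csf1r (0.16 ± 0.18, 0.14 ± 0.13 and 0.80 ± 0.24 CPM) ran the other way, and the leukocyte gene Ptprc had 0 counts. The part of length and of these markers in the result was not tested beyond the correction.

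**Figure D4:**
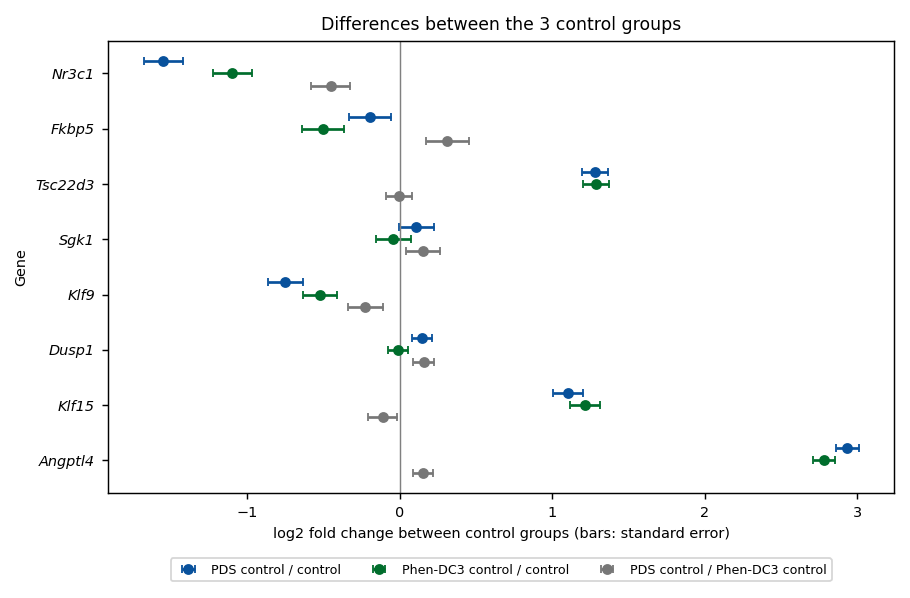
Log2 fold change between control groups for the 8 genes, with bars of 1 standard error. Angptl4 lies at 2.94 and 2.78, Tsc22d3 and Klf15 at 1.1 to 1.29, and Nr3c1 at -1.55 and -1.10, while differences between PDS and Phen-DC3 controls lie within 0.5 of 0.

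Over the 6 groups, the order of Angptl4 was PDS controls, Phen-DC3, Phen-DC3 controls, PDS, Braco-19 and the controls named for no compound. The ranges of neighbours overlapped among the first 3 groups only. For Tsc22d3 they overlapped among Phen-DC3 controls, PDS controls and PDS, and between Braco-19 and its controls. For Nr3c1, the controls named for no compound and Braco-19 led without overlap, and each neighbouring pair among the other 4 groups overlapped. For Fkbp5 every neighbouring pair overlapped, from Braco-19 (28.8 ± 4.92 CPM) down to Phen-DC3 controls (19.5 ± 2.89 CPM). Dusp1 varied little, from 207 ± 14.7 to 254 ± 11.5 CPM.

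The other genes of the pathway were followed in 6 lists, which were tested in every comparison. These lists were chosen with earlier results of these data known, which their p-values do not take into account. The first list holds genes that supply or compete for hormone. Nr3c2, the mineralocorticoid receptor, Hsd11b1, which regenerates active hormone, and H6pd, which feeds it with NADPH, were tested. With edgeR 0 of the 3 passed for any compound. At an unadjusted p under 0.05 there was 1 lower for PDS, 1 higher for Phen-DC3 and 1 lower for Braco-19, and DESeq2 called the same numbers. Over all 14184 genes, 3241 had an unadjusted edgeR p under 0.05 with PDS, 4096 with Phen-DC3 and 2660 with Braco-19. Over all genes, DESeq2 called 1406 with PDS, 2006 with Phen-DC3 and 301 with Braco-19. Those numbers also stand beside the unadjusted counts and the DESeq2 counts in the lists below. Hsd11b1 was 143 ± 7.19 CPM in PDS controls, 153 ± 5.45 CPM in Phen-DC3 controls and 95.6 ± 6.49 CPM in the controls named for no compound. It was higher in both (log2 0.58 ± 0.06 and 0.68 ± 0.06, adjusted p = 5.492e-08 and 7.388e-09, edgeR). Nr3c2 was lower in PDS controls than in the controls named for no compound (log2 -1.28 ± 0.36, adjusted p = 0.003646, edgeR). H6pd was lower in Phen-DC3 controls (log2 -0.35 ± 0.08, adjusted p = 0.0006953, edgeR). In each comparison 1 of the 3 was called higher and 1 lower. Of all genes 73.3% were called in either direction for PDS controls and 69.5% for Phen-DC3 controls.

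Among the 7 chaperones that hold the receptor, such as Hsp90ab1, Hspa8, Fkbp4 and Stip1, 0 passed with edgeR for any compound. At an unadjusted p under 0.05, 2 were higher with PDS, 2 higher with Phen-DC3 and 1 lower with Braco-19, and DESeq2 called 1, 1 and 0 of the 7. Between baselines, 5 were higher and 1 lower in PDS controls than in the controls named for no compound, and 4 higher and 0 lower in Phen-DC3 controls. Of all genes 35.6% were called higher and 37.7% lower in the first of these comparisons and 34.6% and 34.9% in the second. Hspa8 was at 1064 ± 29.5, 1027 ± 87.2 and 618 ± 36.2 CPM in the 3 control groups.

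Of the 10 coregulators, the proteins through which the receptor acts on chromatin, 7 fell with Phen-DC3 and 0 rose, beside 5.82% of all genes called lower and 2.19% called higher. Their median log2 fold change was -0.53, against -0.01 over all genes. The histone acetyltransferases Ep300 and Crebbp went from 5.03 ± 0.62 to 2.62 ± 0.53 CPM (log2 -0.93 ± 0.18, edgeR adjusted p = 0.0112) and from 15.8 ± 1.94 to 10.1 ± 1.49 CPM (log2 -0.65 ± 0.13, edgeR adjusted p = 0.0112). The coactivator Ncoa2 was at -0.74 ± 0.15 (edgeR adjusted p = 0.01159) and Smarca4, an ATPase of the SWI/SNF remodeller, at -0.36 ± 0.07 (edgeR adjusted p = 0.0112). The median gene model of the list was longer than 94.7% of those tested. With the length correction 1 of the 10 was called lower. Leaving out replicate 1 of either group gave a count of 0, control replicate 2 gave 2 and Phen-DC3 replicate 2 gave 1. On the 6 libraries of this comparison alone, 0 of all genes were called lower. The edgeR adjusted p was then 0.1991 for Ep300, Crebbp and Smarca4 and 0.2015 for Ncoa2.

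With PDS and Braco-19, 0 of the coregulators passed in edgeR or in DESeq2, and at an unadjusted p under 0.05 there were 0 with PDS and 2 lower with Braco-19. All 10 were lower in PDS controls and in Phen-DC3 controls than in the controls named for no compound, with median log2 differences of -2.00 and -1.69, where 37.7% and 34.9% of all genes were called lower. After the length correction 8 of the 10 were called lower in each.

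Of 24 further genes induced by glucocorticoids, 21 were tested. With Braco-19, 1 rose and 0 fell, beside 0.169% of all genes called higher and 0.106% called lower. The 1 that rose was Per1, a clock gene with a glucocorticoid element, which went from 19.4 ± 0.87 to 31.5 ± 1.13 CPM (log2 0.70 ± 0.11, edgeR adjusted p = 0.006858). The call was lost without control replicate 1 (adjusted p = 0.0558), control replicate 3 (0.05424) or Braco-19 replicate 3 (0.06693). Per1 stood at 11.4 ± 0.86 CPM with PDS and 11.2 ± 1.21 CPM in its controls.

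With PDS, 1 of the 21 fell and 0 rose, beside 2.96% of all genes called lower and 5.13% called higher. The 1 that fell was the metalloreductase Steap4, at 9.47 ± 1.58 against 13.9 ± 0.50 CPM (log2 -0.55 ± 0.17, edgeR adjusted p = 0.048). Leaving out any of the 6 libraries ended that call (adjusted p 0.05201 to 0.1833). With Phen-DC3, 3 fell and 0 rose, beside 5.82% of all genes called lower and 2.19% called higher. The 3 were the TGF-beta co-receptor Tgfbr3, the repressor Bcl6 and the PI3-kinase subunit Pik3r1. Their log2 fold changes were -0.45 ± 0.11, -0.45 ± 0.11 and -0.42 ± 0.12 (edgeR adjusted p = 0.02319, 0.0212 and 0.04137). With the length correction, or without Phen-DC3 control replicate 1 or 2 or Phen-DC3 replicate 1 or 2, 0 of these 3 were called. The list's median log2 fold change was 0.02 for PDS, -0.08 for Phen-DC3 and 0.07 for Braco-19, against 0.02, -0.01 and 0.00 over all genes.

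In PDS controls 12 of the 21 were higher and 5 lower than in the controls named for no compound, beside 35.6% and 37.7% of all genes. In Phen-DC3 controls 13 were higher and 5 lower, beside 34.6% and 34.9%. Cebpd, a factor of the acute phase, was at 691 ± 40.1, 593 ± 79.4 and 95 ± 4.83 CPM in the 3 control groups, and the mTOR inhibitor gene Ddit4 at 44.5 ± 4.78, 37.4 ± 7.26 and 12.4 ± 1.75 CPM. Per1 was lower in the same comparison, at 11.2 ± 1.21 and 11.9 ± 0.64 against 19.4 ± 0.87 CPM. Hsd11b1, Hspa8, Cebpd, Ddit4 and the baseline values of Per1 were chosen for mention after their values were seen.

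Of 25 fasting genes under PPAR and FOXO control, the class to which Angptl4 is often assigned, 17 were tested, and 0 passed in edgeR for any compound. At an unadjusted p under 0.05 there were 2 higher and 2 lower with PDS, 1 and 3 with Phen-DC3, and 2 and 1 with Braco-19. DESeq2 called 0, 1 (lower) and 0. Pdk4, a kinase that spares glucose, was at 1.65 ± 0.41 CPM with PDS and 1.39 ± 0.16 CPM in PDS controls. Cpt1a, which carries fatty acids into mitochondria, was at 63.6 ± 7.23 and 63.2 ± 3.76 CPM, and the lipid droplet gene Plin2 at 116 ± 3.14 and 100 ± 5.26 CPM (log2 0.20 ± 0.07, edgeR adjusted p = 0.1004). Between baselines 5 were higher and 8 lower in PDS controls than in the controls named for no compound, and 6 and 8 in Phen-DC3 controls, beside the same shares of all genes as for the list before. Pdk4, Cpt1a and Plin2 were also chosen after their values were seen.

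Paralogs from the Klf, Dusp, Sgk, Tsc22d and Angptl families of the members formed the last list, with 26 of 31 tested. It held no paralogs of Nr3c1, Fkbp5 or Zbtb16, and 11 of the 26 were Klf and 10 were Dusp genes. With PDS 7 rose and 0 fell, beside 5.13% of all genes called higher and 2.96% called lower, with a median log2 fold change of 0.15 against 0.02 over all genes. Of the 10 phosphatases of the Dusp family 5 were called higher. Dusp6, which acts on ERK, rose from 26.7 ± 0.81 to 39.8 ± 3.83 CPM (log2 0.58 ± 0.09, edgeR adjusted p = 0.000366). Dusp7 rose from 42.4 ± 2.55 to 60.2 ± 2.59 CPM (log2 0.51 ± 0.08, adjusted p = 0.0005977), and Dusp5 by 0.55 ± 0.13 (adjusted p = 0.01028), both in edgeR. Angptl2, a secreted relative of Angptl4, rose from 18.8 ± 1.34 to 28.7 ± 1.88 CPM (log2 0.61 ± 0.12, edgeR adjusted p = 0.002459), while Angptl4 itself was lower. The count of 7 was 4 without PDS control replicate 3 or PDS replicate 2.

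With Phen-DC3, 3 paralogs fell and 0 rose, beside 5.82% of all genes called lower and 2.19% called higher. The 3 were Klf10 (-0.40 ± 0.09), Tsc22d2 (-0.41 ± 0.10) and Klf3 (-0.32 ± 0.10), with edgeR adjusted p of 0.01547, 0.02124 and 0.04512. The count was 0 with the length correction. It was also 0 on leaving out replicate 1 of either group or replicate 2 of Phen-DC3, 1 on leaving out control replicate 2 and 5 on leaving out control replicate 3. With Braco-19, 0 of the 26 passed in edgeR, 3 were higher and 2 lower at an unadjusted p under 0.05, and DESeq2 called 1 lower. No test of a difference between compounds was made for these lists.

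**Figure D5:**
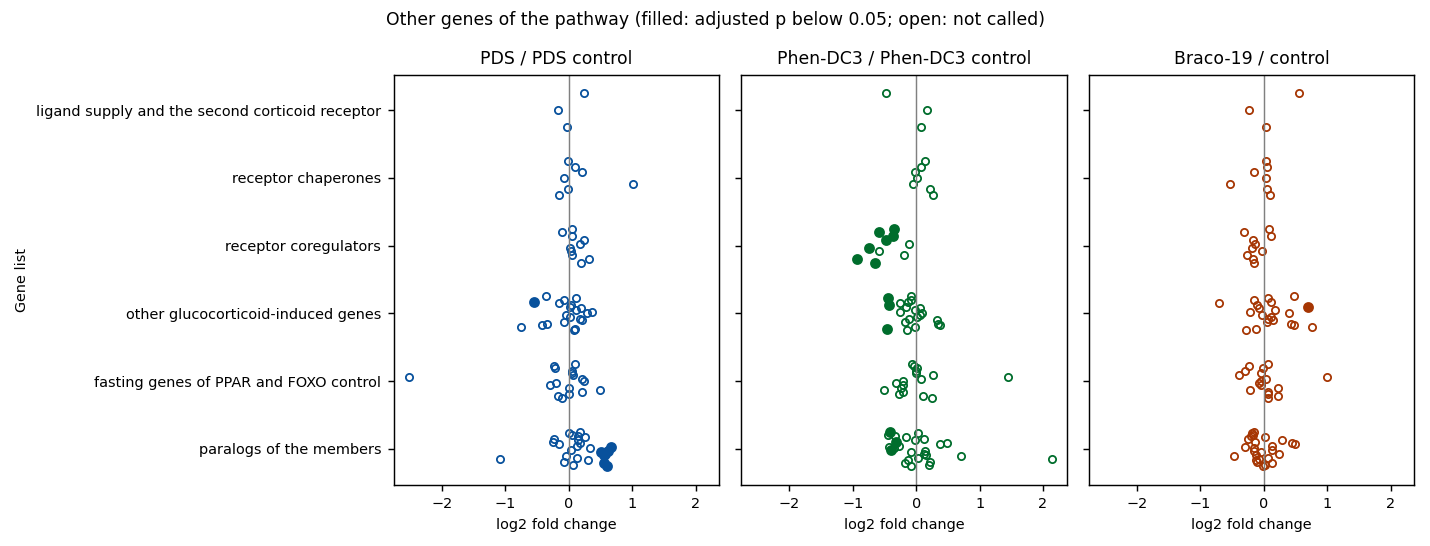
Log2 fold change (horizontal) of each tested gene in the 6 lists, 1 panel per compound; filled points passed an adjusted p of 0.05 and open points did not. The filled points are 7 coregulators, 3 induced genes and 3 paralogs with Phen-DC3, all to the left, 7 paralogs to the right and 1 induced gene to the left with PDS, and 1 induced gene with Braco-19.

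The genes whose levels most resembled each member over the 18 libraries were ranked by Pearson's r of log2 CPM among 8763 genes, as a description. The 18 points share the baselines of their control groups and the depth of their libraries. Angptl4 was nearest to Cnp (0.996), Mxd4 (0.995) and A3galt2 (0.994), Tsc22d3 to Nsg1 (0.994), and Nr3c1 to C1galt1 (0.997). Klf15 was nearest to Gas6 (0.971), Klf9 to Plekhg2 (0.966) and Fkbp5 to H6pd (0.905). Sgk1 and Dusp1, which differed little between baselines, reached only 0.834 (Mrps30) and 0.822 (Ndufaf6).

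When each compound and its controls were first centred on their own mean, a measure added after the data had been seen, Klf15 was nearest to Nr1h3 (0.927), Gas6 (0.918) and Angptl4 (0.918). The closeness of Klf15 and Angptl4 holds the contrasts that chose them and is no separate result. On the same centred scale the lowest r between members were -0.72 for Fkbp5 with Sgk1, and -0.63 and -0.62 for Nr3c1 with Angptl4 and Klf15. These pairs were picked as the lowest, hold the same contrasts and are no separate result either.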

How the data were processed

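RNA was sequenced in 18 libraries. The deposited table holds counts per gene, raw and not normalised, made by the authors with CASAVA, HISAT2 and featureCounts 1.5.0-p3 per the submitters' processing notes. Nothing in the sources used here gives the build, the annotation or the strandedness. The gene lengths are those the authors deposited. The fit used edgeR 4.0.16 under R 4.3.3 (TMM factors 0.97 to 1.02, filterByExpr by group, 1 robust quasi-likelihood fit of 6 groups, 12 residual degrees of freedom, two-sided), with Benjamini-Hochberg adjustment over 14184 genes and a threshold of 0.05. Standard errors came from the F statistics. CPM came from the same counts, and simulated data were used to test the fit. Alternatives were RLE and upper-quartile factors, no count filter, a lowess correction for gene length (span 0.3), each compound's 6 libraries alone, pooled controls, DESeq2 1.42.0, a replicate block and each library left out. Where genes have near-identical copies, the counting may divide reads among these.

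The members and lists were chosen with earlier results of these data known. Named were the 9 members, up to 4 called genes of each list per compound with the smallest p, and the 3 genes most like each member (log2 CPM of at least 3, prior count 0.5), of which part are printed. The result of 1 further gene is not reported here. Members received p-values only for Phen-DC3. Library totals of 15715121 to 18369443 counts limit low genes, and counting error is a lower limit since reads carry no molecular identifiers. Promoters are those of RefSeq (GRCr8), matched by symbol for 8 of the 9 genes.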

Additional observations from a re-analysis of the deposited data

How the results depend on the processing

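The replicate numbers did not pair the libraries: deviations of same-numbered libraries correlated at -0.2 to 0.0577. With the replicate block 587 genes were called for PDS (1148 without it), 1 for Phen-DC3 (1136) and 2 for Braco-19 (39). On the 6 libraries alone the counts were 2053, 1 and 781, and against the mean of the 3 control groups 5599, 7570 and 8555. DESeq2 called 2006 genes for Phen-DC3 and 301 for Braco-19. The length correction left 47 for Phen-DC3 (22 higher, 25 lower, against 311 and 825) and 468 of 864 between PDS and Phen-DC3 controls (182 higher, 286 lower, against 226 and 638). For PDS, upper-quartile factors gave 575 higher and 527 lower, against 728 and 420. The 6 libraries alone gave 987 and 1066 for PDS, and DESeq2 gave 765 and 1241 for Phen-DC3. Upper-quartile factors moved the median of all genes by 0.112 and 0.111 (log2) in PDS and Phen-DC3 controls against the controls named for no compound. Leaving out 1 library at a time gave 563 to 867 calls for PDS, 0 to 3315 for Phen-DC3 (0 on leaving out Phen-DC3 replicate 1, 3 for control replicate 1, 3315 for control replicate 3), 1 to 153 for Braco-19 and 0 to 2740 between PDS and Phen-DC3 controls. The counts for the other 2 baseline comparisons stayed within 1.5 times. Signs turned against the mean of the 3 control groups for Angptl4 with PDS (0.49), Fkbp5 with Phen-DC3 (-0.20), and Klf15 (-0.24) and Angptl4 (-1.51) with Braco-19. For PDS and Braco-19 this list covers only members called there. By their group means, Nr3c1 and Tsc22d3 turned too with both compounds. Nr3c1 was at 45.5 CPM with PDS and 92.1 CPM with Braco-19, and Tsc22d3 at 47.6 and 20.5 CPM. PDS controls, Phen-DC3 controls and the controls named for no compound had 37.6, 51.6 and 111 CPM of Nr3c1. They had 48.8, 49.0 and 20.1 CPM of Tsc22d3. For Fkbp5 with Phen-DC3, leaving out 1 library gave -0.0321 (control replicate 1) to 0.1795 (control replicate 3), and -0.0056 on leaving out Phen-DC3 replicate 2. Sgk1 was at 0.0983 with the length correction, and leaving out 1 library gave -0.1148 (Phen-DC3 replicate 3) to 0.0964 (control replicate 1), with 0.0298 and 0.0125 for replicates 1 and 2 of Phen-DC3. The block also ended the Phen-DC3 calls of Nr3c1 (adjusted p = 0.1423) and Dusp1 (0.1127) and the calls of Klf15, Angptl4 and Per1 (0.1105) with Braco-19, that of Steap4 with PDS (0.104) and those of the 10 list genes named for Phen-DC3 (0.09972 to 0.1497), in edgeR. Beyond fewer samples or another baseline, the cause was not tested.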
